A study of Mus musculus with 28 samples.

Results

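Inflammatory macrophages that carried the transcripts of *Arg1*, *Mmp12* and *Spp1* made up 292 of the 16893 cells kept from 3 single-cell libraries of the mouse jugular vein. They were chosen cell by cell from shares of unique molecular identifiers (UMIs, the counted transcript molecules). A kept barcode had 200 to 6000 genes and at most 10% mitochondrial UMIs. A member had at least 0.3% of its UMIs in *Arg1*, *Mmp12* and *Spp1* together, and at least 0.3% in the myeloid genes *Lyz2* and *Ctss*. It also had under 0.2% in the complement genes *C1qa*, *C1qb* and *C1qc*, under 1.5% in the neutrophil genes *S100a8* and *S100a9*, and under 1.5% in *Col1a1*, *Col1a2*, *Col3a1* and *Dcn*. The levels of those genes therefore describe the choice and are not results, and the label genes *Inhba* and *Slpi*, which the choice did not use, were picked with values of these cells in view.

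The series followed the jugular vein of male and female C57BL/6 mice after it was joined end to side to the carotid artery to make an arteriovenous fistula (AVF). Every animal had a prior subtotal nephrectomy, so the contralateral jugular veins that served as controls also came from mice with reduced kidney mass. Single cells were measured in a contralateral, an early AVF and a late AVF library, and each pooled 10 vessels of both sexes. Bulk RNA was measured in 7 contralateral veins, 8 early AVFs (day 3), 5 mid AVFs (day 10) and 5 late AVFs (day 21), and the days are nominal because harvest times varied within a group. With 1 pooled library per condition, no single-cell difference has a replicate check, all intervals given for cells cover counting error only, and the condition cannot be told apart from the library.

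Macrophages of an injured vessel arise from monocytes that enter the wall and from cells that already live there, and the latter are recognized by *Cd163*, *Lyve1* and *Folr2*. Transcripts for C1q do not single them out. Macrophages with C1q that lacked these resident markers numbered 50 in the contralateral, 1074 in the early and 901 in the late library. *Spp1* encodes osteopontin, a secreted phosphoprotein that binds integrins and CD44 and acts on macrophages and fibroblasts. *Mmp12* encodes macrophage elastase, a protease that cleaves elastin, and *Arg1* encodes arginase 1, which turns arginine into ornithine and urea. *Inhba* encodes the subunit of activin A, a ligand of the TGF-β family, and *Slpi* encodes a secreted inhibitor of serine proteases.

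The promoters of *Mmp12* and *Spp1* are shown because these genes led in different cells of the group. Each RefSeq promoter (build GRCm38.p6) spans 300 bases, 250 before and 50 after an annotated start, and both genes have more than 1 entry. They were searched on both strands for TGANTCA, the site of the AP-1 factors, and for GAGGAAGT, a site of the myeloid factor PU.1, and the capitals mark the match. Among 32851 mouse promoters of this length, 7.81% held the AP-1 letters and 3.2% the PU.1 letters.

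Mmp12, entry 1, chr9:7344147-7344446, plus strand: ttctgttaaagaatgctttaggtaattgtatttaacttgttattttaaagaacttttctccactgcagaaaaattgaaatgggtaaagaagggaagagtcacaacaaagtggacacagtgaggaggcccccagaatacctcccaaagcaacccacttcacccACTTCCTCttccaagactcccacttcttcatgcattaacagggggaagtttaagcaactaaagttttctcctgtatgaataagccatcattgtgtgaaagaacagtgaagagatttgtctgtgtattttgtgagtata

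Mmp12, entry 2, chr9:7347124-7347423, plus strand: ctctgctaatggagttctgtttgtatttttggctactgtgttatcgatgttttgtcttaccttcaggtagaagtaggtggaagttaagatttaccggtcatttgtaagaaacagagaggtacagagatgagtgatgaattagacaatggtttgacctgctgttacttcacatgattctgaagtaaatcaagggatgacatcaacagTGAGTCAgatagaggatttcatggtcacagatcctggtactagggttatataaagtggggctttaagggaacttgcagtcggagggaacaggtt

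Spp1, entry 1, chr5:104434861-104435160, plus strand: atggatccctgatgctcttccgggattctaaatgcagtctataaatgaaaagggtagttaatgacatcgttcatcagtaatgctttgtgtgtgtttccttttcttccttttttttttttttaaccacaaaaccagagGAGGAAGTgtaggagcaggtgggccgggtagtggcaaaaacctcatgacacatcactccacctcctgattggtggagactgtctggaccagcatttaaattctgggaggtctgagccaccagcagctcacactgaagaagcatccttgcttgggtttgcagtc

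In the first *Mmp12* entry the PU.1 letters lay on the reverse strand, 88 bases before the start, and in the second entry the AP-1 letters lay 44 bases before the start. The first *Spp1* entry held the PU.1 letters 113 bases before the start, and its second entry (chr5:104435942-104436241) held neither. Of the genes named below as higher in the inflammatory macrophages, *AA467197* and *Il1a* held an AP-1 match 73 and 12 bases before the start, and *Areg* a PU.1 match 126 bases before it. *Inhba* and *Slpi* held neither, and *Arg1*, *Fn1*, *Hp*, *Lpl* and *Mmp9* are named only. A match describes the letters and says nothing of binding.

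Inflammatory macrophages were absent from the contralateral library and were found in both AVF libraries. None of the 6319 contralateral cells met the rule, which allows a share of up to 0.0475%. In the early AVFs 233 of 4753 cells were members, 4.90% (95% exact interval 4.31 to 5.55). In the late AVFs 59 of 5821 cells were members, 1.01% (0.772 to 1.31). Among cells that passed the myeloid gate the shares were 0 of 533, 10.6% of 2196 (9.35 to 12.0) and 3.79% of 1558 (2.90 to 4.86). Late shares lay below early shares by either denominator, with intervals that did not overlap. The contralateral library was the shallowest, with a median of 2751 UMIs per kept cell against 8951 and 15425, and the part of depth in these shares was not tested.

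How the rule met the cells can be read from those it turned away. In the early library 684 cells passed the limit on *Arg1*, *Mmp12* and *Spp1*, and 302 of them missed membership by the C1q limit alone. In the late library 145 cells passed and 49 missed by C1q alone, so a large part of the *Spp1* cells of the AVFs were C1q macrophages by this rule. In the contralateral library 5 cells passed, and each of them failed for *Lyz2* and *Ctss* alone. Just inside the limit, at 0.3 to 0.4%, lay 34 early and 10 late cells, and just outside it, at 0.2 to 0.3%, lay 54 and 7. The lowest members stood at 0.305% and 0.310% and the highest cells outside at 0.297% and 0.295%. Of 842 T cells 0 passed the limit, and their highest share was 0.139%. No member shared its barcode with another library, although 17 kept contralateral, 22 early and 23 late barcode sequences also occurred in another library.

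The cells carried transcripts of macrophages and few transcripts of T cells, dendritic cells or endothelium. Some macrophage markers were lower than in C1q macrophages, and monocyte markers did not share 1 direction. *Cd68*, a lysosomal glycoprotein of macrophages, stood at 598 and 582 CPM (counts scaled to equal totals, here the share of a gene in all UMIs summed over the cells of a class) in early and late members, against 664 and 502 in C1q macrophages without resident markers. *Csf1r*, the receptor that macrophages need to survive, stood at 358 and 388 CPM. Of the pan-macrophage list 0 of 10 genes were 2-fold higher than in C1q macrophages early and *Adgre1* and *Fcgr1* were lower, with *Adgre1*, which encodes F4/80, at 179 and 71.0 CPM against 518 and 442 CPM. Of the monocyte list *F10*, *Hp* and *Fn1* were 2-fold higher than in C1q macrophages, 3 of 6 genes early and 3 of 4 late, and *Ms4a4c* was lower early. The monocyte gene *Ly6c2* was at 9.04 and 26.7 CPM against 332 and 591 in monocytes, and *Plac8* at 84.5 and 91.3 CPM against 2756 and 2572. *Cd3e* and the dendritic cell genes *Flt3* and *Xcr1* had 0 UMIs in the members of both libraries. The 7 T cell genes summed to 4.99 and 25.8 CPM in members against 3405 and 3294 CPM in T cells, and the 6 endothelial genes to 17.5 and 6.45 CPM. The rule had capped collagen and neutrophil genes, so their low levels were fixed by the choice. Monocytes were chosen by *Ly6c2*, *Plac8* and *Chil3*, and T cells by T cell genes. The higher levels of those genes in these 2 classes were therefore fixed by how the classes were chosen. Among neutrophil markers *Retnlg* and *Ngp* were at 4.99 and 0.935 CPM early and at 0 late, while *S100a8* and *Mmp9* were 2-fold higher early than in C1q macrophages, 2 of 3 genes with enough counts.

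The 3 genes of the rule were spread unevenly over the members. All 233 early members held a *Spp1* UMI, 139 (59.7%) held *Arg1* and 103 (44.2%) held *Mmp12*. Of the 59 late members, 53 (89.8%) held *Spp1*, 22 (37.3%) *Arg1* and 41 (69.5%) *Mmp12*. All 3 transcripts were seen together in 75 early and 11 late cells. *Spp1* was the most abundant of the 3 in 207 early members (88.8%) and in 28 late ones (47.5%), while *Mmp12* led in 19 (8.15%) and 28 (47.5%). *Arg1* led in 6 early and 2 late cells. Among cells chosen by these 3 genes, most early ones were led by *Spp1*, with *Arg1* in part of them. The late ones fell into equal numbers led by *Spp1* and by *Mmp12*. The rule used these genes, so these counts describe the chosen cells.

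**Figure D1:**
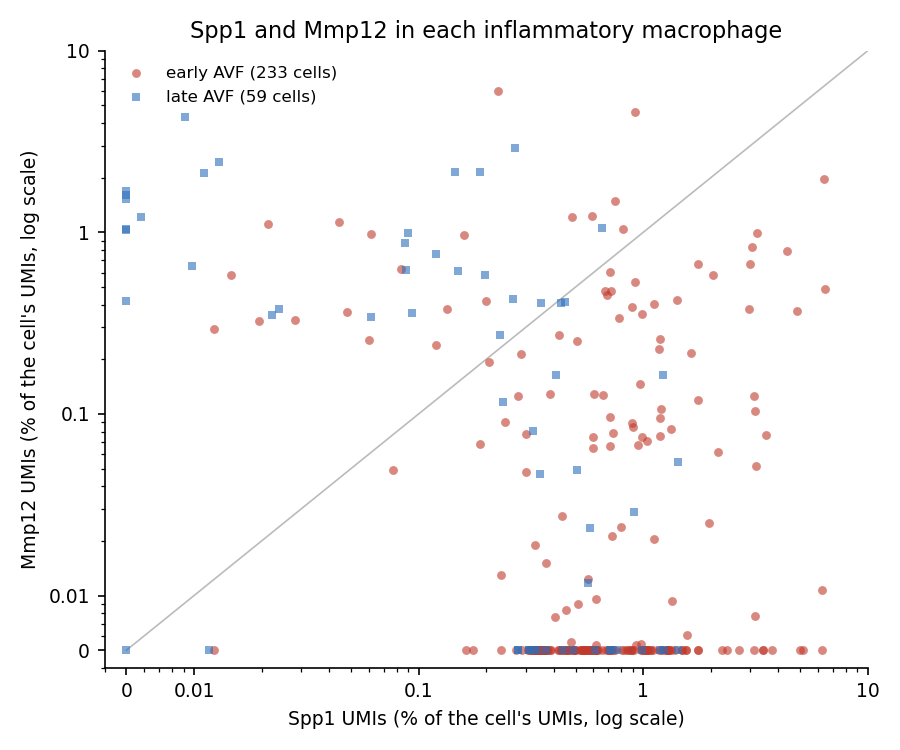
Share of each member's UMIs in *Spp1* (horizontal) and *Mmp12* (vertical), as percent on log scales. Shares of 0 and the smallest shares are drawn together at the lowest tick, labelled 0. Circles are the 233 early cells, squares the 59 late cells, and the line marks equal shares. Most early cells lie to the right of the line and many have no *Mmp12* UMI, while the late cells divide between both sides.

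After each cell was thinned to 1000 UMIs, which left 191 early and 57 late members, *Spp1* was detected in 92.7% of early and 73.7% of late members. The same measure gave 14.5% and 2.90% in T cells. Median depths before thinning were 5577 and 6514 UMIs there, against 11479 and 14462 in members. Whether the T cell UMIs came from free RNA or from the T cells was not tested. *Arg1* was detected in 33.5% and 22.8% of thinned members against 0 and 0.223% of T cells, and *Mmp12* in 32.5% and 63.2% against 0 and 1.11%. *Inhba* was seen in 26.7% and 14.0% of thinned members against 2.29% and 0.891%, and *Slpi* in 30.9% and 17.5% against 3.05% and 2.00%. Before thinning, *Inhba* was seen in 41.6% and 47.5% of members and *Slpi* in 61.4% and 59.3%. The rule fixed the order for *Spp1*, *Arg1* and *Mmp12*. Thinned monocytes, in turn, had *Inhba* in 7.02% and 14.0% of cells and *Slpi* in 25.2% and 29.0%, so late members did not exceed late monocytes in either gene.

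The label genes were also concentrated in few cells. The tenth of early members with the most UMIs of a gene held 54.1% of the *Spp1* UMIs, 67.3% of *Arg1*, 73.9% of *Slpi*, 76.1% of *Mmp12* and 81.8% of *Inhba*. The median early member had 58 UMIs of *Spp1*, 1 of *Arg1* and none of *Mmp12* or *Inhba*. One early cell held 2005 *Spp1* UMIs and 1 late cell 1143 *Mmp12* UMIs. A summed level therefore speaks for a minority of strong cells in each gene.

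Compared with the C1q macrophages without resident markers, the members had more transcripts of *Inhba*, *AA467197* and the chemokine gene *Cxcl3*. More chemokine genes were 2-fold lower than higher in members, 6 against 2 of 14 early and 8 against 3 of 15 late. In the early AVFs 6.24% of 1571 genes with at least 100 CPM in 1 of both classes were 2-fold higher in members and 6.68% were 2-fold lower, and in the late AVFs the shares were 11.7% and 12.1% of 1688. *Inhba* was 15.0-fold higher early (841 against 56.1 CPM, interval of the ratio 13.9 to 16.2) and 10.98-fold higher late, or 6.90-fold without the late cell that held most of it. *AA467197*, which encodes a small mitochondrial protein, was 11.6-fold higher early (540 against 46.6 CPM) and 10.2-fold late. The neutrophil chemokine *Cxcl3* was 6.65-fold higher early (2999 against 451 CPM) and 4.57-fold late. These 3 genes were led by members in both libraries.

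Other genes named by size were those of the matrix, the membrane and the plasma proteins. *Fn1*, which encodes fibronectin, was 5.88-fold higher early (4503 against 765 CPM) and 10.0-fold late. *Lpl*, which encodes lipoprotein lipase, was 5.54-fold higher early (950 against 172 CPM) and 11.3-fold late. The tetraspanin gene *Cd9* was 6.09-fold and 6.05-fold higher, the coagulation factor X gene *F10* 6.29-fold and 7.80-fold, and the haptoglobin gene *Hp* 6.34-fold and 6.91-fold. *Cav1*, for caveolin, and *Sdc1*, for the proteoglycan syndecan 1, were 5.82-fold and 5.44-fold higher early and 13.2-fold and 14.3-fold higher late. *F10* and *Hp* were higher still in monocytes, at 446 and 339 CPM early against 295 and 205 CPM in members, whereas *Lpl*, *Cd9*, *Cav1* and *Sdc1* were at 114 CPM or lower in early monocytes.

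Of the other genes higher early, *Areg* was not 2-fold higher late. *Il1a*, the cytokine interleukin 1α, was 5.99-fold higher early (348 against 58.1 CPM) and 2.19-fold late, or 1.79-fold without its top late cell. *Areg*, the EGF receptor ligand amphiregulin, was 4.77-fold higher early and 1.84-fold late, and its late sum fell below the C1q level, at 0.5997 times, without 1 cell. *Mmp9*, a gelatinase, was 4.16-fold higher early (243 against 58.6 CPM), and late it was at 63.6 CPM against 5.70. *Slpi* was 4.05-fold and 6.18-fold higher, but monocytes had more of it than members, at 1191 and 1107 CPM against 1003 and 385 CPM. *Alas1*, the first enzyme of heme synthesis, was 3.84-fold and 4.77-fold higher.

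Genes of resident and C1q macrophages were low in the members. *Ccl8*, a monocyte chemokine of resident macrophages, was 35.2-fold lower early (28.1 against 988 CPM) and 25.6-fold lower late. *Selenop*, for selenoprotein P, was 14.0-fold and 15.4-fold lower, and *Apoe*, for apolipoprotein E, 6.47-fold and 11.6-fold lower (3113 against 20137 CPM early). *Mrc1*, the mannose receptor, was 4.21-fold and 8.25-fold lower, and the transcription factor gene *Maf* 4.73-fold and 6.45-fold lower. Of the resident macrophage list, 7 of 7 genes with enough counts were 2-fold lower in each library. *Fcrls*, *Tmem176b*, *Tmem176a*, *Ms4a7*, *Ly86*, *Ms4a6b*, *Trf*, *Ccl12*, *Cxcl10* and *Aif1* completed the lower genes, with early folds from 3.96 for *Aif1* to 14.5 for *Fcrls*.

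**Figure D2:**
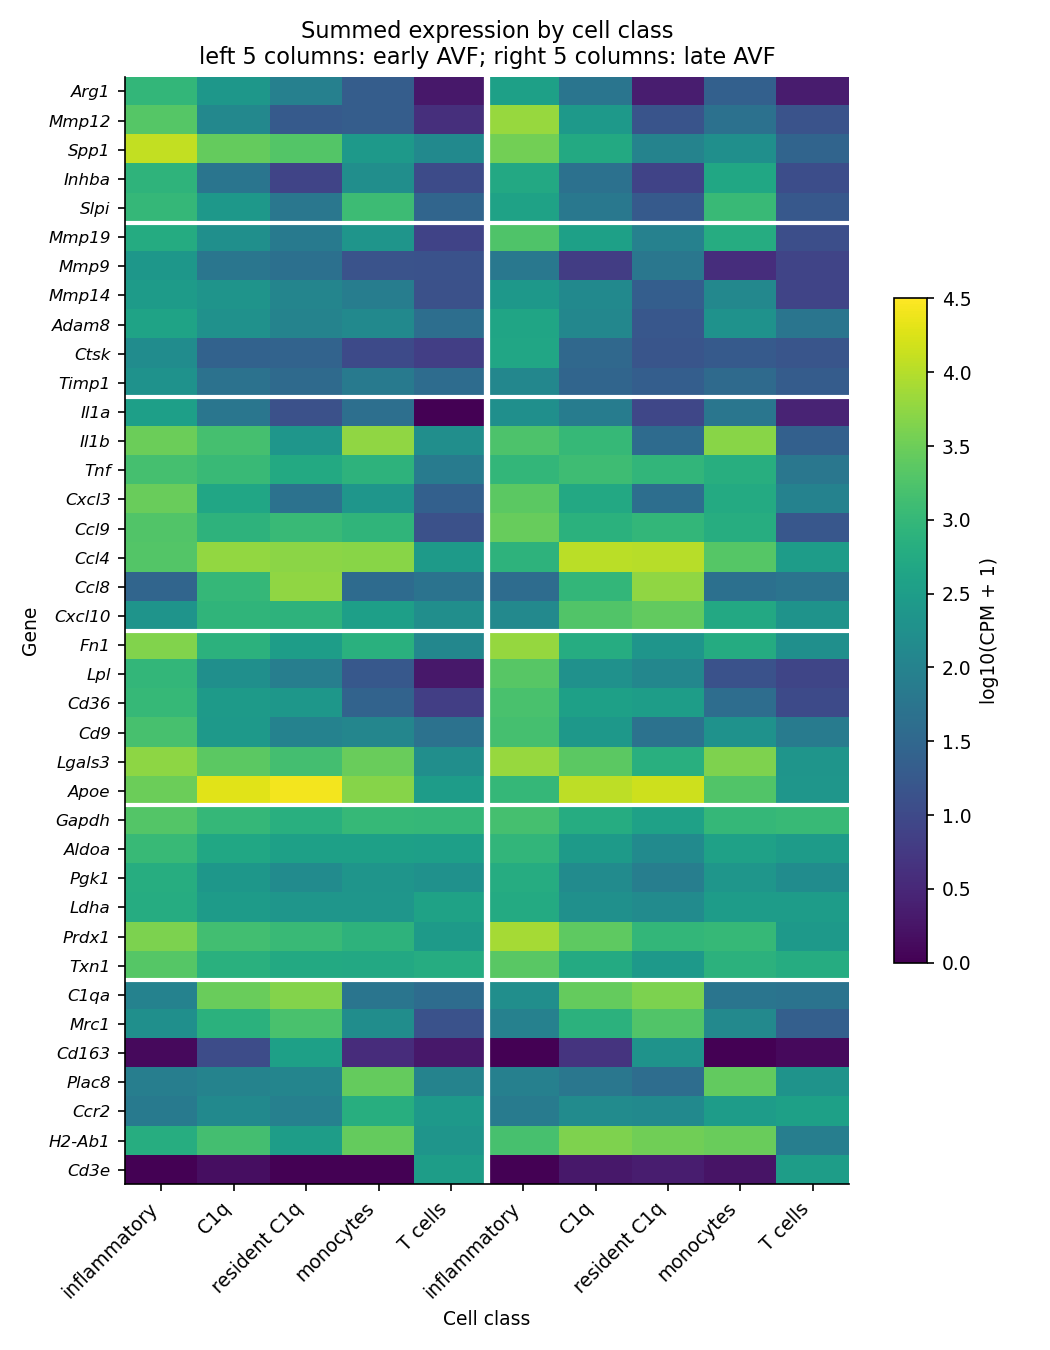
Summed level of named genes (rows) in 5 cell classes of the early and late libraries (columns), as log10(CPM + 1); white lines part the label genes, proteases, cytokines and chemokines, matrix and lipid genes, glycolysis and redox genes, and markers of other classes. *Inhba*, *Lpl* and *Fn1* are brighter in inflammatory macrophages than in C1q macrophages of the same library, while *Ccl8*, *Mrc1* and *Apoe* are darker.

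Gene groups differed in how many members moved against the C1q macrophages. Of 12 glycolysis genes with enough counts, 10 were 2-fold higher early, and 10 of 13 were higher late, in a cell class where 6.24% and 11.7% of all genes were. They were *Slc2a1*, *Pfkp*, *Aldoa*, *Gapdh*, *Pgk1*, *Pgam1*, *Eno1*, *Pkm*, *Ldha* and *Slc16a3*, which import glucose, carry out its breakdown and export lactate. *Pgk1* stood at 631 and 603 CPM against 241 and 146 CPM, and *Aldoa* at 1065 and 912 CPM against 482 and 279 CPM. The early median of the glycolysis ratios was 1.11 on the log2 scale, against 0.05 over all genes tested, and the late median was 1.42 against 0.11. Of the hypoxia list, 0 of 6 genes were 2-fold higher early and *Vegfa* and *Mif* were of 5 late.

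Proteases, lipid genes and antioxidant genes had members that were higher beside members that were not. Among 15 proteases and inhibitors, *Mmp12*, *Mmp9*, *Mmp19*, *Adam8*, *Plaur*, *Ctsk*, *Timp1* and *Slpi* were 2-fold higher early and *Timp2* was lower, and 7 of 15 were higher late, in each case with the rule gene *Mmp12* among them. *Mmp19* stood at 588 and 1796 CPM against 173 and 366 CPM, and *Ctsk*, for the collagen-cleaving cathepsin K, at 156 and 457 CPM against 24.6 and 32.7 CPM. Of the lipid and scavenger genes, 5 of 15 were higher early and 6 of 14 late, with *Apoe* lower in each, and the 19 genes of the list summed to 18858 and 18894 CPM in members against 30147 and 18664 CPM in C1q macrophages. *Cd36*, a receptor for oxidized lipoproteins, stood at 1030 and 1629 CPM against 284 and 360 CPM. *Trem2*, a lipid-sensing receptor, was at 546 and 410 CPM against 579 and 267 CPM, below a 2-fold difference. *Prdx1*, a peroxidase, was 3.09-fold and 3.25-fold higher, and *Prdx1* with *Srxn1*, *Slc7a11*, *Sod2* and *Txn1* made 5 of 14 antioxidant genes that were higher early.

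Cytokine and chemokine genes did not move as a block. *Il1b*, interleukin 1β, was at 3123 and 1732 CPM in members, 2.07-fold and 1.69-fold above C1q macrophages and below the 5627 and 5095 CPM of monocytes. *Tnf* stood at 1468 and 938 CPM against 1112 and 1245 CPM. Of 14 chemokine genes, *Cxcl3* and *Ccl9* were 2-fold higher early and 6 were lower, among them *Ccl3*, *Ccl4* and *Ccl7*, and late 3 of 15 were higher and 8 lower. *Ccl4*, a T cell and monocyte attractant, was at 1968 and 815 CPM against 5910 and 10871 CPM in C1q macrophages. The classical activation genes *Nos2* and *Il12b* had 4 and 0 UMIs over all early members and 0 and 0 over the late ones.

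Antigen presentation, interferon and immediate early genes were lower in members. Of the MHC class II genes 3 of 5 were 2-fold lower early and 5 of 6 late, and *H2-Ab1* stood at 647 and 1565 CPM against 1424 and 4288 CPM. Of 8 interferon-stimulated genes 6 were lower in each library, with *Cxcl10*, a T cell attractant, 4.18-fold and 14.6-fold lower. Of 12 immediate early and heat shock genes, which digestion of tissue can also induce, 5 were lower early and 11 late. *Fos* was at 797 and 275 CPM against 1790 and 1592 CPM, and the part of the digestion in these levels was not tested. Of the 17 genes that the study had itself listed for inflammatory mono/macros, 9 were 2-fold higher early and 8 late and 0 were lower. Both counts hold *Mmp12* and *Spp1*, which the rule required, and the list was drawn from these same libraries and is not independent of them.

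Early and late members were then compared with each other. Of 1563 genes with at least 100 CPM in 1 of both, 3.33% were 2-fold higher early and 2.94% were 2-fold higher late, and the median ratio was -0.01 on the log2 scale. With each cell thinned to 1000 UMIs, 168 genes were higher early and 235 late, of 1835. That left 191 early and 57 late members, so a level near 100 CPM rested on few UMIs. The part of counting error in the larger counts was not tested. *Spp1* was 3.53-fold higher early (12108 against 3429 CPM, interval 3.41 to 3.65) and *Mmp12* 3.14-fold higher late (2040 against 6412 CPM). The rule used *Spp1*, *Mmp12* and *Arg1*, so their ratios describe the chosen cells. The C1q macrophages, to which the limit on these genes had not been applied, had *Spp1* at 2765 and 531 CPM and *Mmp12* at 123 and 259 CPM in the early and late libraries. *Arg1* was 2.58-fold higher early (934 against 361 CPM) and *Slpi* 2.60-fold (1003 against 385 CPM), while *Inhba* differed by 1.65-fold (841 against 511 CPM), or 2.30-fold without the top cell of each library.

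Early members had more of the inflammatory transcripts *Ptgs2*, *Rgs1*, *Areg* and *Ccl7*. *Ptgs2*, for the prostaglandin synthase COX-2, was 3.41-fold higher early (1628 against 477 CPM), and *Rgs1*, a brake on chemokine receptor signals, 3.80-fold (704 against 185 CPM). *Ccl7*, a monocyte chemokine, was 2.97-fold higher early (501 against 169 CPM) in members but lower early in C1q macrophages (1369 against 2218 CPM). *Apoe* was 3.20-fold higher early. *Mmp9* was 3.83-fold and *Areg* 3.03-fold higher, and without the top cell of each library these became 5.70-fold and 7.69-fold. With members thinned, *Areg* was 0.79 on the log2 scale, under a 2-fold difference.

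Some early differences rested on 1 cell or were also seen in T cells. *Saa3*, for an acute phase protein, was 16.7-fold higher early, but 1 cell held 1146 of its 1435 UMIs and the ratio was 4.92 without the top cells. *S100a8* was 5.46-fold higher early, with 467 of 937 UMIs in 1 cell and 3.42-fold without it, and it was also at 63.2 and 16.7 CPM in T cells. *Col1a1* was 3.01-fold higher early in members (319 against 106 CPM) and 335 against 159 CPM in T cells. The hemoglobin gene *Hbb-bs* was at 660 CPM early and 0.922 late, with 1752 of 2118 early UMIs in 1 cell. The part of free RNA in *S100a8*, *Col1a1* and *Hbb-bs* was not tested.

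**Figure D3:**
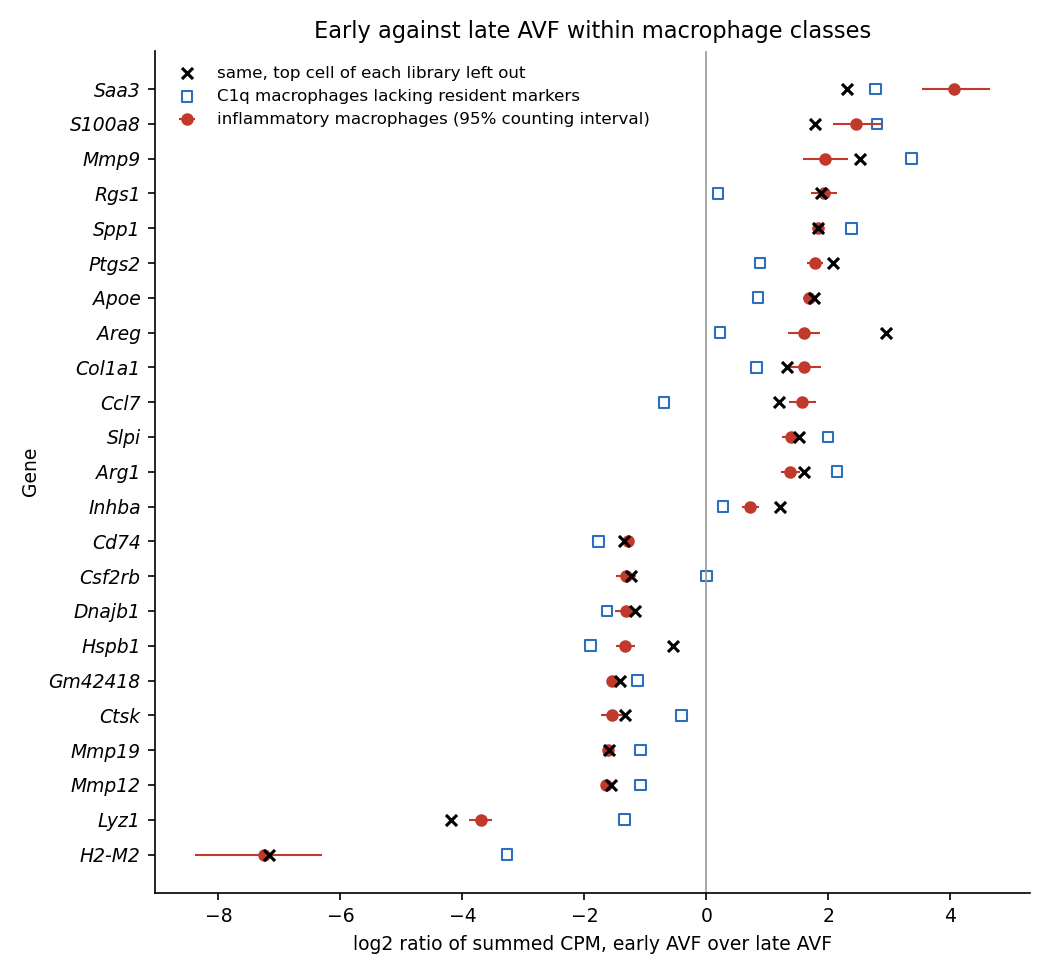
Log2 ratio of summed CPM, early over late, for the named genes; filled circles are inflammatory macrophages with 95% counting intervals, crosses the same without the top cell of each library, and open squares C1q macrophages without resident markers. *Saa3* moves from 4.06 to 2.30 when 1 cell per library is left out, while *Spp1* and *Mmp12* keep their side of 0 in all 3 measures.

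Late members had more of *H2-M2*, *Lyz1* and several proteases. *H2-M2*, a nonclassical MHC class I gene, was 152-fold higher late (interval of the early to late ratio 0.00299 to 0.0126), from 9 UMIs early and 462 late, a log2 ratio of -7.25, which was -4.41 with members thinned to 1000 UMIs. Those 462 UMIs lay in 11 cells, of which 3 held 415, and other classes of the late library had little of it, with 7.39 CPM in C1q macrophages, 0 in monocytes and 0.293 in T cells against 426 CPM in members. *Lyz1*, the second lysozyme gene, whose transcript closely resembles that of *Lyz2* and may share reads with it, was 13.0-fold higher late (84.2 against 1097 CPM), whereas *Lyz2* was at 16398 and 14464 CPM. *Mmp19* was 3.05-fold and *Ctsk* 2.93-fold higher late.

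*Csf2rb*, the shared chain of the GM-CSF, interleukin 3 and interleukin 5 receptors, was 2.49-fold higher late (193 against 481 CPM) in members and stood at 133 CPM in C1q macrophages of both libraries. *Cd74*, the chaperone of MHC class II, was 2.43-fold higher late (1805 against 4394 CPM), and 5 of 6 MHC class II genes were 2-fold higher late. C1q macrophages showed a larger difference in *Cd74* (3567 against 12174 CPM), and T cells the opposite one (616 against 250 CPM). The heat shock genes *Hspb1* and *Dnajb1* were each 2.51-fold higher late, and *Hspb1* was 1.46-fold higher without the top cells. *Dnajb1* was -0.81 and *Cd74* -0.65 as early to late log2 ratios in thinned members, and *Dnajb1* -0.76 and *Hspb1* -0.28 with a limit of 0.5% on the rule genes, all under a 2-fold difference. *Gm42418*, which overlaps ribosomal RNA, was 2.92-fold higher late, and it also differed in T cells (16792 against 26427 CPM).

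Members led by *Mmp12* were set beside those led by *Spp1*, as a description of cells chosen by these values. There were 19 and 28 cells led by *Mmp12* and 207 and 28 led by *Spp1* in the early and late libraries. *Lpl* was higher in the *Mmp12* cells of both libraries, 2066 against 846 CPM early and 3075 against 1076 CPM late. *Arg1*, *Ccl2*, *Ccl7* and *Cxcl1* were at least 2-fold lower there in both libraries, with *Ccl2* at 112 against 845 CPM early and 168 against 751 CPM late. *Inhba* was at 583 against 817 CPM early and at 252 against 867 CPM late. *H2-M2* was nearly all in the late *Mmp12* cells, at 772 CPM against 4.30 in the late *Spp1* cells and 6.08 in the early *Mmp12* cells. *Lyz1* followed it, at 1803 against 123 CPM late, but was at 33.4 against 91.9 CPM early. *Mmp19* did not follow *Mmp12*, at 556 against 606 CPM early and 1578 against 2019 CPM late.

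The bulk libraries, which the choice of cells did not use, measured the same genes in whole vessels with replicates. By the study's methods, the early and late single-cell pools were harvested at later mean days than the bulk groups of the same name. A difference between the 2 measures can therefore not be told apart from one of harvest time. A bulk level cannot tell fewer cells from less RNA per cell. Counts were scaled by the trimmed mean of M-values and are given as CPM over each library, and a gene was called at an adjusted p under 0.01 and a 2-fold change in edgeR's quasi-likelihood test over 12673 genes. Of the 5 label genes, 4 rose in early AVFs against contralateral veins, where 6.17% of all genes did and 6.45% fell. Among mid AVFs 3 label genes rose, where 2.74% of genes rose and 3.31% fell. For late AVFs the number was 2, where 2.49% of genes rose and 2.85% fell. Under edgeR's own lower count filter 13.9% of genes rose and 5.03% fell early, 11.3% and 2.74% did mid, and 2209 of 20076 genes rose and 487 fell late. Libraries held 20254173 to 67457501 counts.

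*Spp1* rose at all 3 time points. It ranged from 0.196 to 81.5 CPM in contralateral veins (median 20.8) and from 1063 to 13492 CPM in early AVFs (median 3754). The mid AVFs stood at 1075, 630, 640, 1193 and 1121 CPM and the late AVFs at 627, 952, 455, 506 and 608 CPM. Every AVF library lay above every contralateral one, as was true of 4.47% of genes early, 7.32% mid and 6.25% late, while 2.34%, 4.69% and 4.25% lay wholly below. On the log2 scale it rose by 7.72 ± 0.95 early (SE, edgeR, adjusted p = 9.84e-07), 5.26 ± 0.87 mid (0.000151) and 4.70 ± 0.85 late (0.000517).

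*Mmp12* also rose at all 3 time points, with the highest levels in mid AVFs. It ranged from 0 to 25.3 CPM in contralateral veins (median 0.482) and from 49.98 to 353 CPM in early AVFs (median 146). The mid AVFs stood at 734, 509, 613, 548 and 811 CPM and the late AVFs at 473, 444, 449, 134 and 298 CPM. Groups of AVFs did not overlap with contralateral veins, and the mid libraries lay above all early ones. The share of all genes with every mid library above every early one was not computed. The changes on the log2 scale were 5.40 ± 0.96 (adjusted p = 0.000152 by edgeR), 7.24 ± 1.07 (3.82e-05) and 6.40 ± 1.03 (0.000156). Between late and early AVFs the change of 1.00 ± 0.84 did not pass the test (adjusted p = 0.742).

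*Arg1* rose in early AVFs only by this test, and its early libraries spread widely. It ranged from 0 to 18.03 CPM in contralateral veins (median 0.0625) and from 36.3 to 2989 CPM in early AVFs (median 418), a log2 change of 7.39 ± 1.41 (adjusted p = 0.00036 by edgeR). The mid AVFs stood at 26.8, 11.9, 14.3, 29.9 and 26.2 CPM and the late AVFs at 12.5, 7.93, 6.09, 8.13 and 11.7 CPM, so the late values lay inside the contralateral range. The mid and late changes against contralateral veins, 2.17 ± 1.19 and 0.94 ± 1.18, did not pass (adjusted p = 0.257 and 0.681). Every late library lay below every early one, as 8.39% of genes did (7.16% lay wholly above), and the late change against early AVFs was -6.45 ± 1.58 with an adjusted p of 0.0111, short of the threshold. It passed by DESeq2, and also when contralateral library 28, 31, 34, 632 or 633, or early library 1, 4 or 10, was left out.

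*Slpi* and *Inhba* differed from each other in bulk. *Slpi* ranged from 0 to 8.80 CPM in contralateral veins and from 21.3 to 391.7 CPM in early AVFs (median 93.2), and rose by 6.14 ± 1.08 on the log2 scale (adjusted p = 0.00014 by edgeR). The mid AVFs stood at 82.3, 23.3, 11.5, 33.1 and 39.3 CPM, a rise of 4.30 ± 1.03 (0.00577) whose call was lost without contralateral 27 or mid AVF 9, 14 or 15 (3.80 to 4.34). Late AVFs, at 15.5 to 40.6 CPM, were above all contralateral libraries, but the change of 3.59 ± 1.00 did not pass (0.019). It passed by DESeq2, by edgeR's likelihood ratio test and with other count filters, and without contralateral library 31 it was 4.95 (0.00185). *Inhba* ranged from 0.687 to 152 CPM in contralateral veins and from 55.8 to 175 CPM in early AVFs, with overlapping groups at each time, and its changes of 1.04 ± 0.65, 1.12 ± 0.72 and 0.88 ± 0.72 did not pass (adjusted p = 0.273, 0.347 and 0.488).

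**Figure D4:**
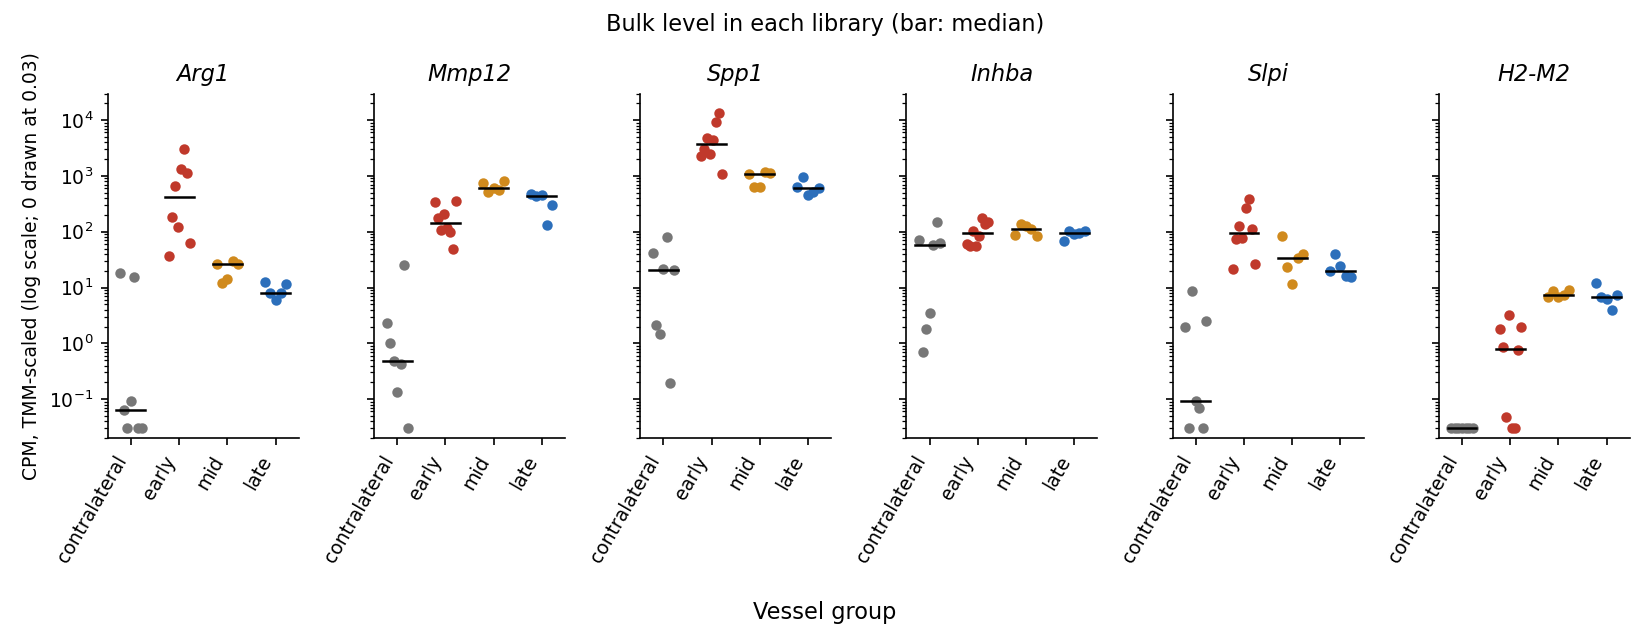
Bulk CPM of the 5 label genes and *H2-M2* in each library, on a log axis with 0 drawn at 0.03; dots are libraries (7 contralateral, 8 early, 5 mid, 5 late) and bars group medians. *Spp1* and *Arg1* stand highest in early AVFs, *Mmp12* and *H2-M2* in mid and late AVFs, and *Inhba* overlaps in all groups.

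Other genes of the inflammatory macrophages also rose in whole AVFs. Of the study's 17 inflammatory mono/macro genes, 11 rose early, 6 mid and 4 late, and 0 fell. Because the study chose this list on the single-cell libraries of the same model, these counts are not independent evidence of its direction. *Acod1*, which makes itaconate, rose from at most 0.158 CPM in contralateral veins to between 16.8 and 100 CPM early and between 11.2 and 20.3 CPM late. *Clec4e*, a C-type lectin receptor, had a median of 136 CPM early, 61.4 mid and 33.6 late, against 0 to 10.4 CPM in contralateral veins. *Fn1* rose by 1.30, 2.30 and 2.41 on the log2 scale, and *Il1b* by 4.05 early (adjusted p = 0.00651 by edgeR) with libraries that overlapped. *Il1b* missed the threshold when contralateral library 27, 31, 35 or 632, or early library 4, 5 or 6, was left out. It was 6.42 without contralateral library 34, and *Mmp19* (2.63, adjusted p = 0.00958) missed it in 23 of 25 fits with 1 library left out, all but those without contralateral 31 or 632.

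Not every gene that marked these cells against C1q macrophages rose in bulk. *AA467197* was at most 0.241 CPM in contralateral veins and rose to 7.10 to 109 CPM early and 4.84 to 6.32 CPM late, and *Cxcl3* rose from at most 0.395 CPM to 9.86 to 421 CPM early and 7.76 to 16.6 CPM late. *F10* rose early by 4.13 and *Hp* by 2.95 on the log2 scale (adjusted p = 0.00475 and 0.000614 by edgeR). The call of *F10* was lost without contralateral 27 (3.94) or early AVF 6 (3.82). *Cav1*, also a gene of endothelium and smooth muscle, fell by 1.47, and *Cd36* fell by 1.39 early. *Lpl*, *Cd9* and *Sdc1* changed by -0.68, -0.53 and -0.44 early and did not pass (adjusted p = 0.0834, 0.0876 and 0.424). Smooth muscle markers fell in the same comparison, 5 of 5, and endothelial markers, 4 of 6, and the part of the cell mix in these levels was not tested.

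Proteases, cytokines and chemokines of the fixed lists mostly rose early. In early AVFs 15 of 21 proteases and inhibitors rose and *Timp2* fell, and in late AVFs 7 rose. *Timp1*, the inhibitor of metalloproteinases, rose by 4.55 early and 2.12 late on the log2 scale and was lower in late than in early AVFs by -2.42 (adjusted p = 0.00241 by edgeR), a call lost without late AVF 16, 17, 19 or 24 (-2.52 to -2.32). *Mmp8*, *Mmp13*, *Mmp14*, *Adam8* and *Serpinb2* rose at each time. *Mmp14* rose early by 1.43 (adjusted p = 0.00912), and with 1 library left out it was called only without contralateral 27, 28 or 633, early AVF 5, 6 or 7, or late AVF 17 (1.21 to 1.49 without the others, in edgeR). Late, the call of *Mmp14* was lost without late AVF 19 (1.87), that of *Mmp13* without late AVF 16, 19, 23 or 24 (4.72 to 5.02), and that of *Mmp8* without contralateral 34, 35, 632 or 633, early AVF 2 or 4, or late AVF 16, 17 or 19 (3.77 to 4.61). Of 9 cytokine genes, *Il1a*, *Il1b*, *Il1rn*, *Tnf* and *Osm* rose early, and of 19 chemokine genes 13 rose early and 8 mid and late. *Trem2* rose by 7.18, 5.47 and 4.85, and *Lgals3*, for the lectin galectin 3, by 3.80, 2.28 and 1.70, and was lower late than early by -2.09 (0.00529). The late call of *Lgals3* was lost in 15 of 25 fits with 1 library left out (1.56 to 1.81), which were all those without a mid AVF, those without late AVF 16, 17, 19 or 23, and those without contralateral 27, 28, 34, 35, 632 or 633, and its late against early call was lost without any one late AVF or early AVF 5 (-2.23 to -1.81).

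Late against early AVFs, 0 of the 5 label genes passed, where 0.726% of genes rose and 2.28% fell. The 289 lower calls over all genes became 2, 5, 5, 96 and 1 without late AVF 16, 17, 19, 23 or 24, and the 92 higher calls 29 to 55. By DESeq2, by edgeR's likelihood ratio test or at an adjusted p under 0.05, 2 of the 5 label genes passed, *Arg1* and *Spp1*. *Spp1* changed by -3.03 ± 0.87 (adjusted p = 0.0306 by edgeR's quasi-likelihood test). Every late library lay below every early one, as 8.39% of genes did, while 7.16% lay wholly above. Of the study's list *Prdx1* fell, by 1.27 (0.00402), a call lost without any one of the late libraries. The 10 neutrophil genes summed to 254 to 4528 CPM early, 135 to 388 mid, 111 to 270 late and 4.68 to 178 in contralateral veins, where 1 of them was at 0 in all libraries. The 11 pan-macrophage genes summed to 13631 to 41262 CPM early, 11425 to 15901 mid, 7526 to 15575 late and 1850 to 7011 in contralateral veins. The 10 monocyte genes had medians of 5651 CPM early, 5887 mid and 5060 late, the 12 resident macrophage genes 2939, 2237 and 3055 against 4049 in contralateral veins, and the 6 dendritic cell genes 39.4, 65.8 and 94.5 against 191. Their part in the levels of the label genes was not tested.

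Across the 8 early AVFs, *Spp1* and *Mmp12* stood in opposite order. The library with the most *Spp1* (early AVF 7, 13492 CPM) had the least *Mmp12* (49.98 CPM), and the library with the least *Spp1* (early AVF 10, 1063 CPM) had the most *Mmp12* (353 CPM). Over log2 CPM Pearson's r was -0.945 (exact permutation p = 0.000645, adjusted 0.00242) and Spearman's rho was -1 (exact p = 4.96e-05, adjusted 0.000372), among 15 relations computed. Without the 2 libraries farthest from the median of *Mmp12* r was -0.871, and without the 2 deepest it was -0.959. Within sexes no correlation was computed, since there were 5 male and 3 female libraries. A rho of -1 over all 8 libraries fixes the reverse order of *Spp1* and *Mmp12* within each sex, so it is no separate check. The neutrophil gene *S100a8* moved with this order, with rho 0.786 for *Spp1* and -0.786 for *Mmp12* (exact permutation p = 0.0279 and adjusted 0.0419 for each), and its part in it was not tested. Harvest times also varied within the early group by the study's methods. The labels give only the nominal day of each library, so the part of harvest time in this order was not tested.

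*Arg1* followed *Spp1* in this order, not *Mmp12*. With *Spp1* its r was 0.849 and its rho 0.857 (exact permutation p = 0.00647 and 0.0107, adjusted 0.0162 and 0.0268), and with *Mmp12* -0.877 and -0.857 (0.00538 and 0.0107, adjusted 0.0161 and 0.0268). Without the 2 libraries farthest from the median of *Arg1*, r was 0.861 with *Spp1* and -0.892 with *Mmp12*. *Arg1* and *Slpi* had r 0.953 and rho 0.952 (exact permutation p = 0.000124 and 0.00114). *S100a8* moved with both, with rho 0.952 for *Arg1* and 1 for *Slpi* (exact permutation p = 0.00114 and 4.96e-05), and its part in their order was not tested. For *Inhba* no relation passed, with adjusted p-values for r of 0.221 or more over its exact permutation tests. Its r with *Spp1* was 0.383 over 8 libraries and 0.974 without the 2 farthest from the median of *Spp1*, and with *Mmp12* -0.420 and -0.791 without the 2 farthest from that of *Mmp12*.

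The ratio of *Spp1* to *Mmp12* within a library separated early from later AVFs. It ran from 3.01 to 270 in the early AVFs (median 28.0), and from 1.04 to 2.18 mid and 1.01 to 3.77 late. Only the library early AVF 10 reached into the late range. On the log2 scale late AVFs were 3.79 below early ones (0.894 ± 0.725 against 4.69 ± 2.10, SD, exact permutation p = 0.00311, adjusted 0.00466). Mid AVFs were 4.18 below early ones (0.502 ± 0.394, exact permutation p = 0.00155, adjusted 0.00466), and late and mid AVFs differed by 0.392 (exact permutation p = 0.341). The ratio was not compared with contralateral veins, where *Mmp12* was at or near 0 in several libraries.

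**Figure D5:**
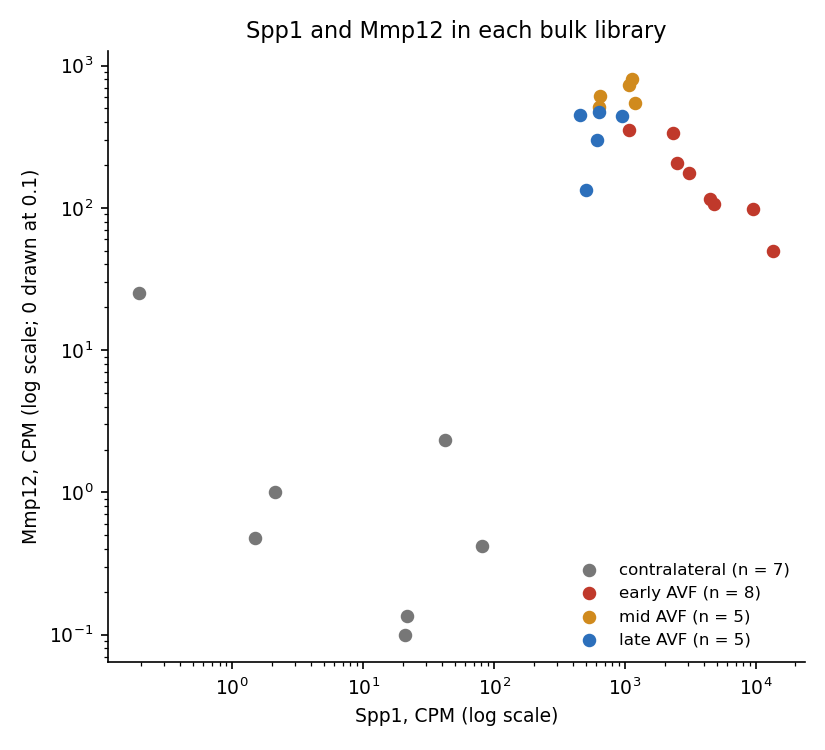
Bulk CPM of *Spp1* (horizontal) and *Mmp12* (vertical) in each library on log axes, with 0 drawn at 0.1; colours mark the 4 groups. The 8 early AVFs run from high *Spp1* and low *Mmp12* at the right to 1063 and 353 CPM, next to the mid and late AVFs.

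*H2-M2*, picked because it differed most between late and early members, had its own measure in bulk. It had 0 counts in all 7 contralateral veins and between 0 and 3.15 CPM in early AVFs. Mid AVFs stood at 6.79, 8.70, 6.75, 7.27 and 9.05 CPM and late AVFs at 12.1, 6.76, 6.29, 3.94 and 7.27 CPM, all above every early library. Of the genes in the edgeR fit, 7.16% lay wholly above and 8.39% wholly below in late against early AVFs. For mid against early AVFs this share was not computed. The gene was under the count limit of the edgeR fit, so it was tested alone, 7.71 ± 1.09 mid and 7.28 ± 3.00 late against 1.07 ± 1.14 early (SD, exact permutation p = 0.00155 for each, the smallest this design allows). *Lyz1* was higher in late than in early AVFs by 2.02 ± 0.43 on the log2 scale (adjusted p = 0.00456 by edgeR), a call lost without late AVF 16, 17 or 19 or early AVF 5 and with sex as a covariate (1.87 to 1.99). Contralateral veins also had *Lyz1*, at 67.0 to 680 CPM, and early AVFs had less of it than they did, by -2.35 (0.000112).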

How the data were processed

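The deposited files were per-cell UMI counts for the 3 single-cell libraries, made by the authors with Cell Ranger 6.0.2 per the file headers, and a deposited bulk table of whole-read counts per gene for 25 libraries. The submitters' processing notes name STAR, mm10 and GRCm38 without a role, and for the bulk table, aligner and counter were not given in the sources used here. Files and columns holding the authors' own fold changes and p-values were not used.

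The members and gene lists were chosen with earlier results of these data known. Of 26438 barcodes 16893 passed the limits on genes and mitochondrial UMIs, more cells than the study plotted. Macrophages and monocytes shared the gates given for members, except as stated here. C1q macrophages had at least 0.2% C1q and under 0.05% *Cd163*, *Lyve1* and *Folr2* (resident ones at least that). They had no limit on *Arg1*, *Mmp12* and *Spp1*. Monocytes had at least 0.1% *Ly6c2*, *Plac8* and *Chil3*, and stayed under the member limit on *Arg1*, *Mmp12* and *Spp1*. T cells had at least 0.1% T cell genes and lay outside the member gate on *Lyz2* and *Ctss*. Counts were summed per class and library, with exact binomial, Poisson or conditional binomial intervals at 95%, a floor of 3 counts for a share of 0, and no test, since there was 1 library per condition. Genes were named by ratio (the 10 largest each way early against late, the 15 largest each way against C1q macrophages) among those of at least 200 CPM in the higher class, leaving out hemoglobin, ribosomal protein, mitochondrial, immunoglobulin and sex-linked genes, with rule genes left out of the second set. Label genes, the study's list and list genes of at least 200 CPM or past the bulk test could also be named, and *Hbb-bs*, *Ly6c2*, *Plac8*, *Cd3e*, *Nos2* and other genes of low level were added after their values were seen. Doublets were sought with Scrublet (scanpy 1.11.5), which marked 0, 2 and 113 cells and 0 members. It did not work in the contralateral library, so doublets were in effect not removed.

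Of 56980 bulk gene IDs, 32210 were named from the single-cell gene lists and 19962 from the reference, and 4808 stayed unnamed. The fit took genes averaging at least 100 normalized counts and used edgeR 4.0.16 (R 4.3.3) over all 4 groups with no covariate (biological coefficient of variation 0.843), with Benjamini-Hochberg adjustment. DESeq2 1.42.0, other filters, a sex covariate and each library left out in turn were alternatives. The labels do not say whether each bulk library is 1 animal, so p-values measure the spread between these libraries. Both pipelines were tested on simulated data. Python 3.11.15, scipy 1.17.1 and pandas 2.3.3 were used.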

Additional observations from a re-analysis of the deposited data

Results flagged for a closer look

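Among 80 pairs of a bulk gene and a group, over the label genes and the study's list, 14 had 1 library far from the rest by Dixon's test, namely 7 contralateral, 6 early, 1 mid and 0 late. Chance marks about 1 pair in 20 when values are normally distributed. The test was run on CPM without a log scale, so that rate need not hold here.

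In contralateral veins, library 632 had the highest *Mmp12* (25.3 CPM, next 2.33) and *Traf1* (77.7, next 18.6), library 35 the highest *Clec4d* (11.5, next 2.07) and *Clec4e* (10.4, next 3.99), library 31 the highest *Slpi* (8.80, next 2.52), library 28 the highest *Tnfrsf1b* (394, next 107) and library 34 the highest *Il1b* (43.4, next 7.88). In early AVFs, library 6 stood apart for *Arg1* (2989 CPM, next 1332), *Clec4d* (632, next 293), *Il7r* (87.1, next 29.5) and *Thbs1* (1718, next 895), library 7 for *Ptgs2* (101, next 55.6) and library 10 for *Fn1* (3692, next 2263). In mid AVFs, library 15 had the lowest *Txnrd1* (59.4 CPM, next 84.0).

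*Prdx1*, the peroxidase that was 3.09-fold higher in members than in C1q macrophages early, differed between late and early AVFs in bulk, by -1.27 on the log2 scale (adjusted p = 0.00402 by edgeR). Every late library lay below every early one, as 8.39% of genes did, while 7.16% lay wholly above. Within the members *Prdx1* was higher late, at 7795 against 4159 CPM.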

How the results depend on the processing

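The share of members in early AVFs was 6.04% with a limit of 0.2% on *Arg1*, *Mmp12* and *Spp1*, 3.81% with 0.5% (late 0.722%), 2.76% with *Spp1* left out and the limit lowered to 0.1% for *Arg1* and *Mmp12*, 6.69% with C1q allowed to 0.4%, and 4.26% with no upper limit on genes. The contralateral share stayed at 0 except with 20% mitochondrial UMIs allowed (0.0127%). With members thinned to 1000 UMIs, 168 genes were 2-fold higher early and 235 late of 1835, against 52 and 46 of 1563. Thinned sums held fewer UMIs, and the part of counting error in the larger counts was not tested. Among 115 alternative early to late ratios of genes within members 41 moved past their counting interval and 0 turned direction. Of the 115, 23 left out doublets and could not move, since 0 members were marked as doublets. Thinning to 1000 UMIs moved 19 ratios and left 4 the same, and leaving out the top cell moved 15 and left 8.

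In bulk, the late count of the study's list was 7 by DESeq2, by edgeR's likelihood ratio test and at an adjusted p under 0.05, against 4, and its mid count was 10 at that threshold, against 6. Late against early, label genes past the threshold numbered 2 in each of those 3 settings, against 0, and those of the study's list 6, 4 and 4, against 1. With 1 library left out, the counts ranged from 4 to 4 (early), 2 to 3 (mid), 2 to 3 (late) and 0 to 1 (late against early) for label genes, and from 8 to 11, 5 to 7, 4 to 6 and 0 to 2 for the study's list; *Arg1* made the 1 label gene. It was called without contralateral 28, 31, 34, 632 or 633, or early AVF 1, 4 or 10, and *Prdx1* was not called without any one late AVF. Values that changed direction were near 0, none of them past the threshold. Late against early, *Tnfrsf1b* was 0.03, *Cav1* 0.02 and *Lpl* 0.03 under edgeR's own count filter (-0.06, -0.06 and -0.05 otherwise), and with sex as a covariate *Cav1* was 0.02 and *Lpl* 0.05. With 1 library left out, *Tnfrsf1b* ran from -0.22 to 0.13, *Traf1* from -0.02 to 0.21, *Il7r* from -0.55 to 0.02 *Mmp19* from -0.25 to 0.11, *Cav1* from -0.14 to 0.10, *Lpl* from -0.16 to 0.29 and *Cd9* from -0.04 to 0.19. Against contralateral veins *Sdc1* ran from -0.37 to 0.07 mid and -0.36 to 0.07 late, and *Lyz1* from -0.54 to 0.04 late. The cause was not tested. No paired analysis was possible because the bulk groups share no replicate numbers and each single-cell condition is 1 library.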

Other observations

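Of 14 cell division genes, 1 in each library had enough counts for comparison with C1q macrophages. Its ratio was 0.844 early and 0.780 late, under a 2-fold difference. The genes *Mki67* and *Top2a*, both under the minimum of 100 CPM, had lower levels in the members. *Mki67*, a marker of cycling cells, stood at 14.7 CPM early and 12.9 late, against 52.5 and 68.3 CPM in C1q macrophages without resident markers, and *Top2a* at 11.8 and 1.84 CPM against 30.3 and 49.5. Of the arginine and polyamine genes, *Ass1*, which makes argininosuccinate from citrulline, was at 165 and 248 CPM against 34.0 and 24.9 CPM, and the cationic amino acid carrier *Slc7a2* at 65.8 and 105 CPM against 9.91 and 15.6. *Odc1*, the enzyme that turns ornithine into putrescine, was at 563 and 277 CPM against 726 and 656 CPM, so it did not share the direction of *Arg1*. *Retnla*, a gene of alternative activation, had 1 UMI in early and 27 in late members, 0.312 and 24.9 CPM, against 30.6 and 333 CPM in C1q macrophages.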
